A study of Mus musculus with 9 samples.

Results

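The mitogen-activated protein (MAP) kinases ERK, JNK and p38 carry signals from the T cell receptor, costimulatory receptors and cytokine receptors to the nucleus. Dual-specificity MAP kinase phosphatases, encoded by Dusp genes, switch these kinases off by removing phosphate from both the threonine and the tyrosine of the activation loop. Several of them are themselves transcribed in response to MAP kinase activity and so act as feedback inhibitors, and they differ in which kinases they prefer and in where in the cell they reside.

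The 8 genes described here are Dusp1, Dusp2, Dusp4, Dusp5, Dusp6, Dusp7, Dusp10 and Dusp16. They were chosen by name as the phosphatases of this class, and all 8 were found among the 25759 genes of the table. Dusp1, Dusp2, Dusp4 and Dusp5 encode inducible nuclear enzymes, of which the Dusp5 product is selective for ERK. Dusp6 and Dusp7 encode cytoplasmic enzymes that prefer ERK. Dusp10 and Dusp16 encode enzymes that act mainly on JNK and p38. The genes lie on 8 different chromosomes.

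Expression was measured by RNA sequencing of total RNA from mouse CD4+ T cells in 9 libraries, 3 per group. All mice were C57BL/6, aged 8 to 12 weeks and carried a Foxp3GFP reporter transgene. Activated BMPR1a/CD4cre cells came from a conditional knockout of the bone morphogenetic protein receptor BMPR1a, made with a Cre recombinase expressed from the Cd4 promoter, which is active in developing T cells. Activated wild-type (WT) cells came from mice without that knockout. For both, lymph node and spleen cells were stimulated together in vitro with the mitogen ConA at 2 ug/ml and LPS at 10 ng/ml for 3 days, and CD4+CD44+CD62-Foxp3GFP- cells were then sorted. Naive WT cells were sorted without stimulation as CD4+CD44-CD62+Foxp3GFP- cells. The labels do not state whether the 3 libraries of a group are from different animals, and the p-values below therefore measure the spread between libraries alone, which can be technical.

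Levels are in FPKM, a fragment count scaled to transcript length and to the mapped total of the library, and the number of reads behind each level is unknown. Between 12922 and 13395 genes per library reached 1 FPKM. All 8 T cell markers, Cd3e, Cd4 and Trac among them, were present in every library, with a summed level between 3173 and 3666 FPKM. The 2 CD8 co-receptor genes, which CD4+ cells should lack, summed to between 147 and 279 FPKM in the activated libraries of either genotype and to between 9.48 and 41.4 in naive WT. Bmpr1a itself was at 0.957, 1.93 and 1.199 FPKM in activated BMPR1a/CD4cre libraries and at 2.16, 2.92 and 1.40 in activated WT. These groups overlapped and the difference of -0.41 on the log2 scale was not called (limma adjusted p = 0.261). A gene-level value also counts exons outside a deleted part, so it does not settle the genotype label. In such bulk samples, fewer cells of a type and less RNA per cell cannot be told apart.

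Dusp2, first found as a phosphatase of activated lymphocytes, was the most abundant of the 8 transcripts in every library, and the order below it differed between the groups. In activated BMPR1a/CD4cre cells the order by mean level was Dusp2, Dusp5, Dusp4, Dusp10, Dusp6, Dusp7, Dusp1 and Dusp16. Here the libraries of Dusp5 and Dusp4, and those of Dusp6 and Dusp7, overlapped. In activated WT cells it was Dusp2, Dusp5, Dusp4, Dusp10, Dusp7, Dusp6, Dusp1 and Dusp16, and the overlapping neighbours were Dusp7 and Dusp6. In naive WT cells it was Dusp2, Dusp7, Dusp10, Dusp1, Dusp5, Dusp6, Dusp16 and Dusp4. Dusp10 overlapped there with Dusp1, Dusp1 with Dusp5, and Dusp16 with Dusp4. Beyond its neighbours, naive Dusp1 (10.5 to 28.2 FPKM) also overlapped Dusp7 (21.8 to 24.6) and Dusp6 (9.53 to 11.2). Dusp4 thus ranked above Dusp10 in both activated groups and last in naive cells.

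**Figure D1:**
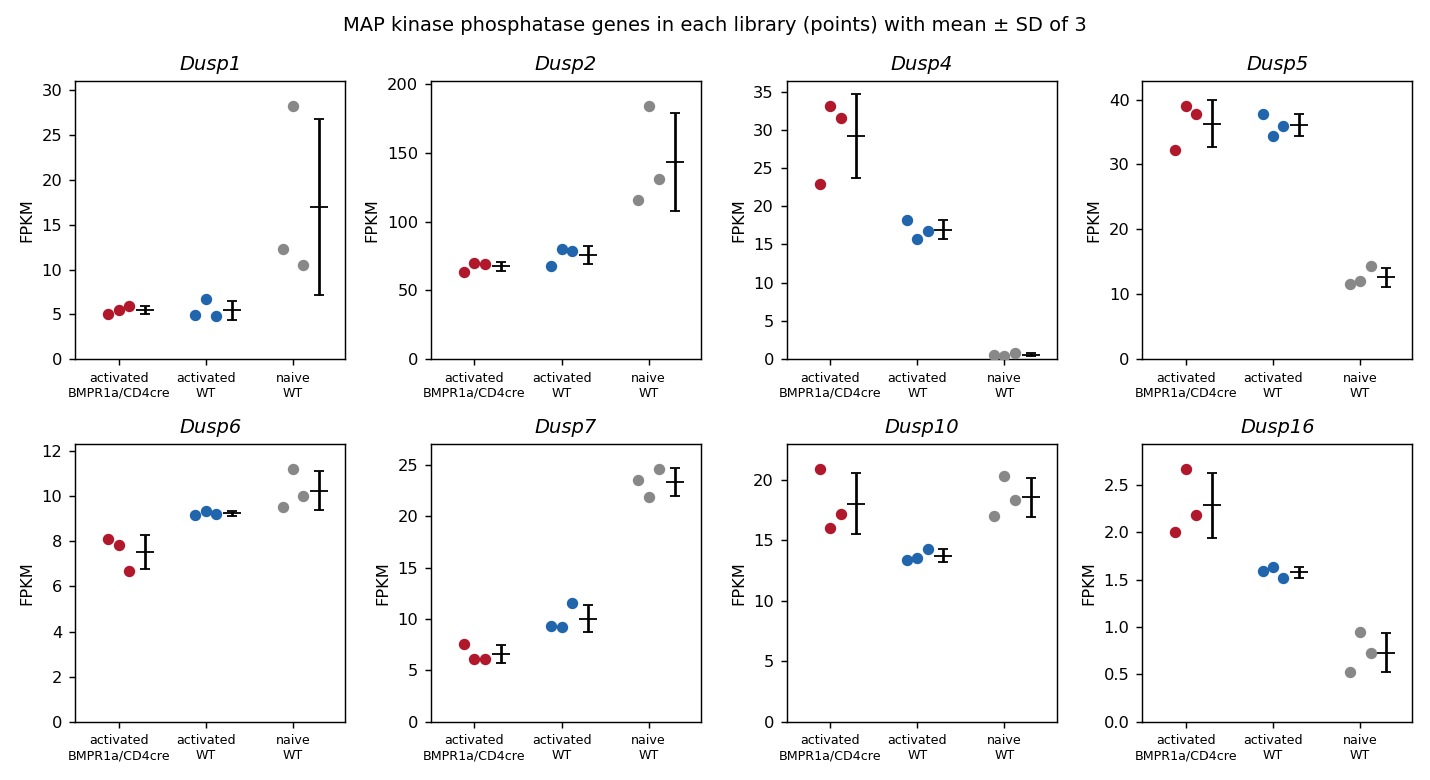
FPKM of each of the 8 genes (vertical axis, linear from 0) in the activated BMPR1a/CD4cre, activated WT and naive WT libraries. Points are libraries and the bars beside them the mean ± SD of 3; Dusp4 lies between 15.8 and 33.1 FPKM in the 6 activated libraries and under 1 FPKM in the naive ones, and 1 naive library stands high for Dusp1 and Dusp2.

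The first comparison set activated WT against naive WT cells, which differ in stimulation, in culture and in the sorted phenotype at once. Dusp4, Dusp5 and Dusp16 rose, Dusp1, Dusp2, Dusp7 and Dusp10 fell, and Dusp6 did not pass the test. The 7 of 8 called genes stand beside 52% of the 15126 tested genes called in this comparison, 26.2% higher and 25.8% lower. Calls were made below an adjusted p of 0.05 in limma's moderated test on log2(FPKM + 1), with Benjamini-Hochberg adjustment over all tested genes. The median log2 fold change of the 8 was -0.27, against -0.009 over all tested genes. For all 8, activated and naive libraries did not overlap, as was so for 59.4% of tested genes, and each then had the smallest p that an exact permutation test of 3 against 3 can give, 0.1.

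Dusp4 made the largest change among the 8. It was at 18.2, 15.8 and 16.8 FPKM in activated WT libraries and at 0.566, 0.440 and 0.755 in naive WT libraries. Every activated library was far above every naive one, and the ratio of the means was 28.8 (16.9 ± 1.23 FPKM in activated and 0.587 ± 0.159 in naive WT, SD, n = 3 each). On the log2 scale the rise was 3.50 (SE 0.145, limma adjusted p = 4.98e-06), the 128th highest of the 15126 genes. The naive level lies below the added 1 FPKM, and with 0.1 FPKM added the rise was 4.65, so the value depends on that choice, and the rank was taken with 1 FPKM added only. Dusp4 (ENSMUSG00000031530) spans 34807297 to 34819894 on the plus strand of chromosome 8 in GRCm38, with no overlapping gene in the annotation.

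Dusp5, the nuclear phosphatase selective for ERK, was at 37.75, 34.45 and 35.95 FPKM in activated WT and at 11.6, 12.0 and 14.3 in naive WT libraries. Its libraries were tight within each group, and the mean was 2.86 times as high in activated cells, or 1.45 on the log2 scale (SE 0.1, limma adjusted p = 2.62e-05). The gene (ENSMUSG00000034765) spans 53529109 to 53542431 on the plus strand of chromosome 19. Dusp16, a phosphatase that prefers JNK, was low throughout, at 1.59, 1.63 and 1.51 FPKM in activated WT and 0.525, 0.944 and 0.721 in naive WT libraries. Its log2 fold change of 0.58 (SE 0.120, limma adjusted p = 0.00453) understates a ratio of 2.16, since the added 1 FPKM is as large as the level itself.

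Of the genes that fell, Dusp7 had the largest fall relative to its spread. It was at 9.33, 9.20 and 11.6 FPKM in activated WT and at 23.5, 21.8 and 24.6 in naive WT libraries, and the activated mean was 43% of the naive one, a log2 fold change of -1.15 (SE 0.114, limma adjusted p = 0.000138). It (ENSMUSG00000053716) spans 106368632 to 106375724 on the plus strand of chromosome 9. Dusp10, of the JNK and p38 class, changed less: it was at 13.4, 13.5 and 14.3 FPKM in activated WT and 17.0, 20.3 and 18.3 in naive WT libraries (log2 fold change -0.40, SE 0.105, limma adjusted p = 0.013). Dusp6, whose product holds ERK in the cytoplasm and which is itself induced by ERK signalling, was at 9.16, 9.36 and 9.21 FPKM in activated WT and 9.53, 11.2 and 10.0 in naive WT libraries. The groups did not overlap, but the difference was small (log2 fold change -0.13, 95% interval -0.33 to 0.07, limma adjusted p = 0.235).

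Dusp2 was at 67.9, 80.25 and 78.65 FPKM in activated WT and at 116, 184 and 131 in naive WT libraries. Dusp1, an immediate early gene induced by many stresses, was at 4.86, 6.67 and 4.84 FPKM in activated WT and at 12.2, 28.2 and 10.5 in naive WT libraries. For both genes naive replicate 2 was the highest of all libraries. Dusp2 averaged 52.6% of its naive level in activated cells (-0.89 on the log2 scale, SE 0.161, limma adjusted p = 0.00236) and Dusp1 32.2% (log2 fold change -1.36, SE 0.32, limma adjusted p = 0.00844).

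Naive replicate 2 also stood apart in transcripts of other cells and of the early stress response. The 10 granulocyte and mast cell markers summed to 1.13, 0.934 and 1.97 FPKM in activated WT libraries and to 57.0, 691 and 114 in naive WT libraries, and the defining markers Camp and Ngp were at 0 in all 3 activated WT libraries. Of the 7 tested in this list, 0 were higher and 5 lower in activated WT cells. The mean of Cpa3 went the other way, 1.02 FPKM in activated WT and 0.45 in naive WT, with overlapping libraries. S100a9 alone, a neutrophil gene, was at 318 FPKM in naive replicate 2. The 10 macrophage, monocyte and dendritic cell markers summed to between 7.19 and 9.87 FPKM in activated WT and to 23.2, 195 and 62.1 in naive WT libraries. The 7 B cell markers went the other way in that library, with sums of 57.7, 3.20 and 184.5 FPKM in naive WT and 141.5 to 179 in activated WT. The 7 natural killer markers did not move one way: of the 5 tested, Klrd1, Klrk1 and Klra3 were higher in activated WT cells and Klrb1c and Tyrobp lower. Their sum, 165 to 194 FPKM in activated WT and 29.1 to 66.8 in naive WT libraries, came mostly from Klrd1 (means of 146 FPKM in activated WT and 21.8 in naive WT), and the defining marker Ncr1 averaged 0.00684 FPKM in activated WT against 0.924 in naive WT cells. The 8 erythroid and platelet markers summed to between 1.078 and 3.36 FPKM in activated WT and between 64.2 and 84.5 in naive WT. The naive sum came mostly from the globin genes. The mean of Pf4 went the other way, 1.195 FPKM in activated WT and 0.286 in naive WT, with overlapping libraries. The immediate early transcripts Fos and Jun were at 35.7 and 44.4 FPKM in naive replicate 2, against at most 17.1 and 13.1 in the other naive libraries. Without naive replicate 2 the log2 fold change was -0.94 for Dusp1 (limma adjusted p = 0.00244) and -0.70 for Dusp2 (limma adjusted p = 0.0017). Both calls thus held without it, and the part of these cells and of the early response in the 2 levels was not tested.

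**Figure D2:**
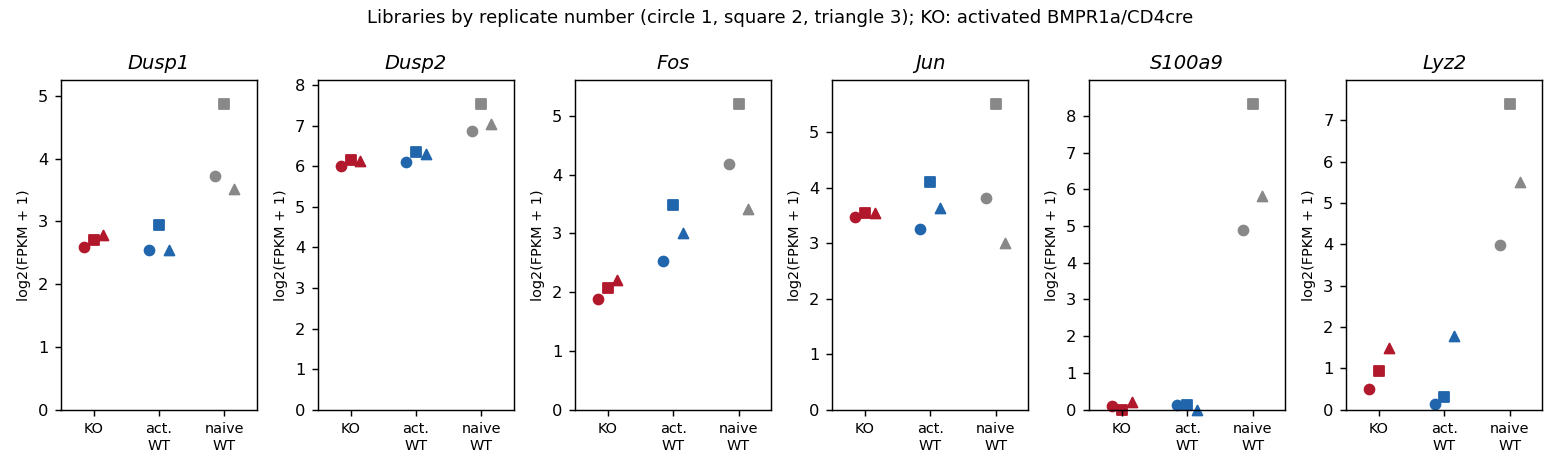
log2(FPKM + 1) of Dusp1, Dusp2, the immediate early genes Fos and Jun, the neutrophil gene S100a9 and the myeloid gene Lyz2 in each library, with the marker shape giving the replicate number. Naive replicate 2 (grey square) is the highest library in each of the 6 panels, and the activated libraries lie near 0 for S100a9.

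Promoter sequences were looked up for the members because several are known early response genes. RefSeq (GRCm38.p6) gave a promoter for 7 of the 8, all but Dusp4. In the 250 bases before the start the GC content ran from 56.4% in Dusp6 to 77.2% in Dusp7, against a median of 52.4% over 32851 promoters. The windows were searched on both strands for the cyclic AMP response element (CRE, TGACGTCA), the AP-1 site (TGANTCA), the EGR site (GCGNGGGCG), the E-box (CACGTG) and the CArG box of serum response factor. The sequences of Dusp1 and Dusp2, which fell, and of Dusp5, which rose, are shown with these matches in capitals, 5′ to 3′ on the gene's strand. Dusp1 lies on the minus strand at chr17:26508473-26508722, Dusp2 on the plus strand at chr2:127335909-127336158 and Dusp5 on the plus strand at chr19:53528895-53529144.
Dusp1: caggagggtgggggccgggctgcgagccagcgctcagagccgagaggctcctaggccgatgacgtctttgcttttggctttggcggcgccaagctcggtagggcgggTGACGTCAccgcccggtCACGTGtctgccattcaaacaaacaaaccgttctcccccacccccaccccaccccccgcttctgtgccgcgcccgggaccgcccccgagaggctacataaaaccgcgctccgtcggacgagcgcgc
Dusp2: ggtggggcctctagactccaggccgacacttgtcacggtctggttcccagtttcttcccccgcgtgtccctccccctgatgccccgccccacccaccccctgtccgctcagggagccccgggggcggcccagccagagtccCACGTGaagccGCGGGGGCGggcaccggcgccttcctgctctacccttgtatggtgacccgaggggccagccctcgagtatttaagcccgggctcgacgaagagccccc
Dusp5: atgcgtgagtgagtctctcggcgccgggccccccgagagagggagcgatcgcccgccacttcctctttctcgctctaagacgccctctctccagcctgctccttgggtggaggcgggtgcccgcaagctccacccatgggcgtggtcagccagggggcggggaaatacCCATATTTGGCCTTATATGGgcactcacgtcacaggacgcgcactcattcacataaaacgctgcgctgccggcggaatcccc
The Dusp1 window holds a CRE that begins 143 bases before the start, found in 1.55% of all promoters, and an E-box at 126 bases, found in 6.02%. The Dusp2 window holds an E-box at 109 bases and an EGR site at 98 bases, a motif found in 4.7% of promoters. The Dusp5 window holds 2 adjoining CArG boxes, at 82 and 72 bases, where 1.47% of promoters hold any. Of the other 4 windows, Dusp16 has an EGR site and the rest have none of these motifs, and no member has the AP-1 site, which 6.75% of promoters hold. The shorter CRE core (TGACG) was in 3 of the 7 windows and in 17.8% of all promoters. In Dusp1 it lies within the full CRE and also apart from it, at 191 bases. A loose NF-kB pattern (GGGA, any 4 bases, CC) was in 4 of 7 and in 17.6% of all promoters. These matches describe letters in a window, not binding. The transcript start used for Dusp1 is the near one, since GENCODE extends the gene (ENSMUSG00000024190) from 26505590 to 26562128 on chromosome 17. That span includes the pseudogene Gm8225 (up to 119 FPKM in a library) and touches Ergic1 (up to 20.4 FPKM) on the opposite strand, where Dusp1 itself was at 4.84 to 28.2 FPKM. It also holds AC122252.4 and AC122252.1 on the same strand, which were not analysed here. No strand setting is given, so shared reads cannot be told apart. The same holds for Dusp10 (chromosome 1, 184013302 to 184075636), which overlaps 1700056E22Rik on the opposite strand, at most 3.84 FPKM in any library. The Dusp10 promoter window, 184034131 to 184034380, also lies inside its annotated gene and overlaps 1700056E22Rik (184033030 to 184034301). The absence of motifs in Dusp10 thus applies to that inner start only. Annotated antisense genes that also lie over Dusp5 and Dusp16 (chromosome 6, 134715468 to 134792625) were not analysed here. Dusp2 (chromosome 2, 127336159 to 127338376) and Dusp6 (chromosome 10, 99263231 to 99267489) overlap no other annotated gene, nor does Dusp7.

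The second comparison, activated BMPR1a/CD4cre against activated WT cells, asked which of these genes differed with genotype after the same culture. Dusp4 was higher and Dusp7 lower in BMPR1a/CD4cre cells, and the other 6 did not pass. The 2 of 8 called stand beside 4.14% of the 15126 tested genes, 3.3% higher and 0.84% lower. Of all 626 calls, 79.7% were higher, but 54.2% with median-of-ratios scaling and 56.5% with quantile normalization. The genotypes did not overlap for 5 of the 8, Dusp4, Dusp6, Dusp7, Dusp10 and Dusp16, and for 31.2% of all tested genes. The median log2 fold change of the 8 was 0.01, and that of all tested genes 0.06.

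Dusp4 was at 22.9, 33.1 and 31.6 FPKM in activated BMPR1a/CD4cre libraries and at 18.2, 15.8 and 16.8 in activated WT libraries. The lowest BMPR1a/CD4cre library, replicate 1, was still above every activated WT library, and the mean was 1.72 times as high (29.2 ± 5.52 FPKM in activated BMPR1a/CD4cre and 16.9 ± 1.23 in activated WT, SD, n = 3 each). The log2 fold change was 0.74 (SE 0.145, limma adjusted p = 0.0409). Dusp7, the cytoplasmic ERK phosphatase, was at 7.60, 6.06 and 6.06 FPKM in activated BMPR1a/CD4cre and at 9.33, 9.20 and 11.6 in activated WT libraries. Every BMPR1a/CD4cre library was below every activated WT one, with a mean at 65.5% (log2 fold change -0.54; SE 0.114; adjusted p from limma 0.0449). In both genes the BMPR1a/CD4cre mean lay further from the naive mean than the activated WT mean did.

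Both calls lay close to the threshold. The direction held under each of the 17 alternatives tried, with log2 fold changes from 0.63 to 0.90 for Dusp4 and from -0.65 to -0.45 for Dusp7, but the call was lost under 13 of them for Dusp4 (limma adjusted p from 0.00563 to 0.154) and under 11 for Dusp7 (from 0.0086 to 0.163). For Dusp4 the single libraries whose omission ended the call were naive WT replicates 1 and 2 (limma adjusted p = 0.0721 and 0.0523), activated WT replicates 1, 2 and 3 (0.0626, 0.154 and 0.0806) and activated BMPR1a/CD4cre replicates 2 and 3 (0.122 and 0.15). For Dusp7 they were the same libraries (0.0824, 0.0585, 0.0674, 0.129, 0.0815, 0.138 and 0.163) and naive WT replicate 3 (0.0569). Naive libraries enter through the spread shared by the 9 libraries. With median-of-ratios scaling the Dusp4 value was 0.66 (limma adjusted p = 0.0633) and with the replicate number as a block it was 0.74 (limma adjusted p = 0.0919), where Dusp7 was at -0.54 (limma adjusted p = 0.0919).

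**Figure D3:**
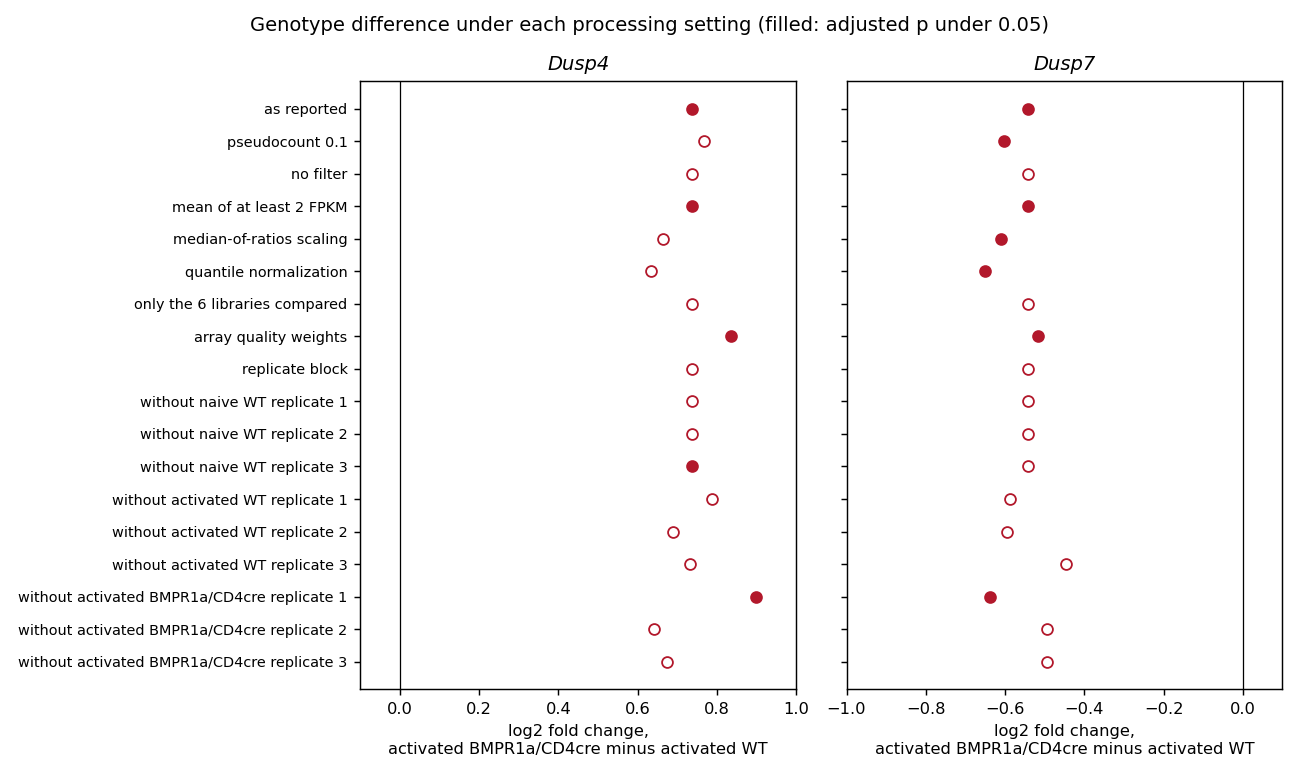
log2 fold change of Dusp4 and Dusp7, activated BMPR1a/CD4cre minus activated WT, as reported (top) and under each of the 17 alternatives. Filled points passed an adjusted p of 0.05; every value keeps its sign while most points are open.

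Of the 6 members that did not pass, 3 had groups that did not overlap. Dusp10 was at 20.9, 16.1 and 17.2 FPKM in activated BMPR1a/CD4cre and at 13.4, 13.5 and 14.3 in activated WT libraries (log2 fold change 0.36, 95% interval 0.12 to 0.60, limma adjusted p = 0.0879). Dusp16 was at 2.00, 2.67 and 2.18 FPKM in activated BMPR1a/CD4cre and at 1.59, 1.63 and 1.51 in activated WT libraries (0.34, 0.07 to 0.62, limma adjusted p = 0.129). These are the 2 members of the JNK and p38 class, and in both the values were higher in each BMPR1a/CD4cre library. Dusp6 was at 8.09, 7.85 and 6.69 FPKM in activated BMPR1a/CD4cre and at 9.16, 9.36 and 9.21 in activated WT libraries (log2 fold change -0.27, 95% interval -0.47 to -0.06, limma adjusted p = 0.116). With array quality weights, Dusp6 and Dusp10 passed (limma adjusted p = 0.021 and 0.022).

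Dusp1, Dusp2 and Dusp5 overlapped between the genotypes. Dusp5 was at 32.2, 39.0 and 37.7 FPKM in activated BMPR1a/CD4cre and at 37.75, 34.45 and 35.95 in activated WT libraries, a log2 difference of 0.01 with a 95% interval from -0.22 to 0.24. Dusp1 was at 5.06, 5.50 and 5.92 FPKM in activated BMPR1a/CD4cre and at 4.86, 6.67 and 4.84 in activated WT libraries (0.02, -0.72 to 0.76). Dusp2 was at 63.3, 70.0 and 68.8 FPKM in activated BMPR1a/CD4cre and at 67.9, 80.25 and 78.65 in activated WT libraries (-0.16, -0.53 to 0.21). The interval of Dusp1 is the widest of the 8, and its spread was estimated over all 9 libraries, where the naive SD was 9.79 FPKM. With either rescaling the signs for Dusp1 and Dusp5 turned negative. The limma adjusted p was 0.587 for Dusp2, 0.99 for Dusp5 and 0.991 for Dusp1. The myeloid markers that set naive replicate 2 apart were low in both groups compared here: the 10 granulocyte and mast cell markers summed to between 1.60 and 4.54 FPKM in activated BMPR1a/CD4cre and between 0.934 and 1.97 in activated WT libraries. The 2 CD8 genes summed to 220, 279 and 254 FPKM in activated BMPR1a/CD4cre and to 171, 147 and 230 in activated WT libraries. The 7 B cell markers summed to 192, 131.5 and 199 FPKM in activated BMPR1a/CD4cre and to 141.5, 154 and 179 in activated WT libraries. Of the 5 natural killer markers tested, 1 was called higher and 0 lower in BMPR1a/CD4cre cells, beside 3.3% and 0.84% of all tested genes. In that list Klrk1 was at 51.0, 50.3 and 52.7 FPKM in activated BMPR1a/CD4cre and at 30.5, 24.5 and 33.1 in activated WT libraries. The part of such cells in the Dusp4 and Dusp7 values was not tested.

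The third comparison, activated BMPR1a/CD4cre against naive WT cells, combines genotype and activation and shares its libraries with the others. Here 7 of the 8 were called, 3 higher and 4 lower, beside 56.9% of tested genes called (31.8% higher, 25.1% lower). The same 7 did not overlap between the groups, as was so for 63.8% of tested genes. Over all genes the higher share of calls was 55.9%, or 43.9% with quantile normalization. Dusp4 had the largest difference (log2 fold change 4.24, SE 0.145, limma adjusted p = 1.67e-06, a ratio of means of 49.7), the 67th highest of all tested genes. With 0.1 FPKM added in place of 1 it was 5.42. Dusp5 (1.46) and Dusp16 (0.93) were also higher. Dusp7 (-1.69), Dusp1 (-1.34), Dusp2 (-1.05) and Dusp6 (-0.40, limma adjusted p = 0.00519) were lower. Dusp10 was not called, with a mean of 18.1 ± 2.54 FPKM in activated BMPR1a/CD4cre and 18.6 ± 1.65 in naive WT cells (log2 fold change -0.04, 95% interval -0.29 to 0.20, limma adjusted p = 0.749). Set beside activated WT against naive WT, Dusp6 was called here and not there, and Dusp10 there and not here. The test of that difference is the genotype comparison itself, in which neither passed.

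**Figure D4:**
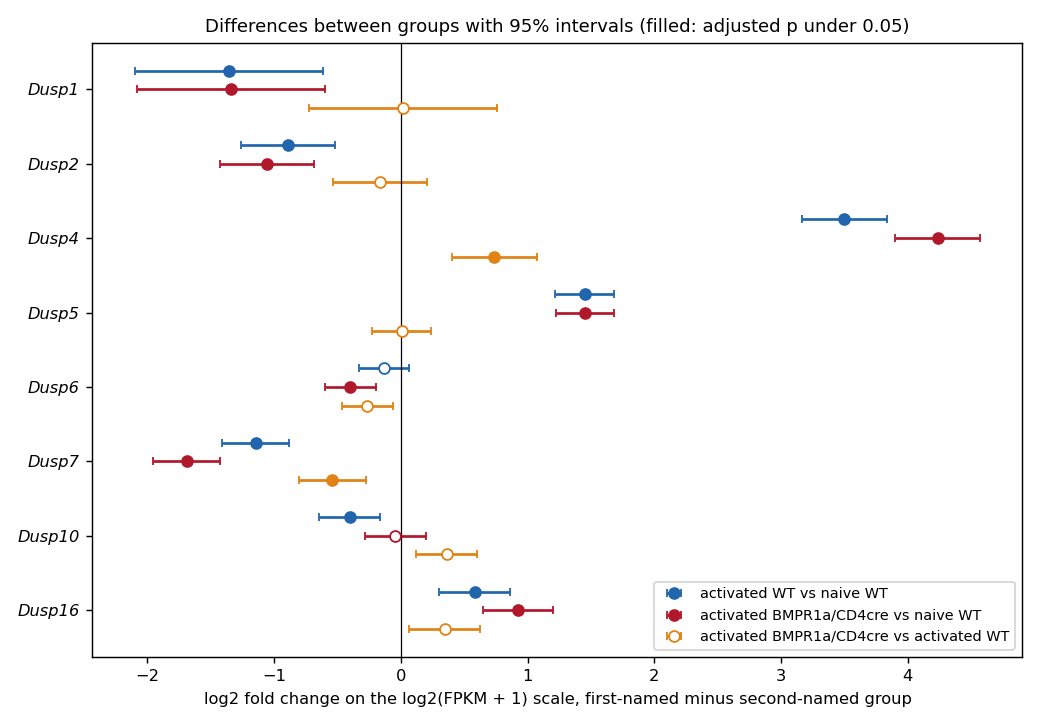
log2 fold changes of the 8 genes with 95% intervals for the 3 comparisons, first-named minus second-named group. Filled points passed an adjusted p of 0.05; Dusp4 reaches 3.50 and 4.24 against naive WT cells and 0.74 between the genotypes.

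Expressed as shares of their summed FPKM, which adjusts for length, the 8 transcripts were made up differently in activated and naive cells. Dusp2 supplied 39.1%, 38.9% and 39.1% of the sum in activated BMPR1a/CD4cre libraries, 41.9%, 47.0% and 45.5% in activated WT and 60.6%, 66.0% and 62.4% in naive WT. Dusp4 supplied 14.1%, 18.4% and 17.9% in activated BMPR1a/CD4cre, 11.2%, 9.22% and 9.72% in activated WT and at most 0.359% in naive WT libraries. Dusp5 averaged 21.0%, 21.4% and 5.71% in activated BMPR1a/CD4cre, activated WT and naive WT cells in that order.

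The 4 nuclear enzymes together kept a similar share, 79.9 ± 3.26% in activated BMPR1a/CD4cre, 79.5 ± 0.735% in activated WT and 76.2 ± 3.82% in naive WT cells (SD, n = 3 each). The cytoplasmic ERK phosphatases Dusp6 and Dusp7 made up 8.21 ± 1.29%, 11.4 ± 0.582% and 15.2 ± 2.95% in the same order, and no activated BMPR1a/CD4cre library reached the lowest activated WT library. The JNK and p38 class, Dusp10 and Dusp16, made up 11.8 ± 2.01%, 9.09 ± 0.195% and 8.63 ± 0.879%. The summed level itself was 173 ± 9.53 FPKM in activated BMPR1a/CD4cre, 169 ± 5.68 in activated WT and 227 ± 46.3 in naive WT cells, where replicate 2 had 279. These shares are descriptions and were not tested.

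Ratios within a library set the Dusp4 level against that of Dusp2 and of Dusp5. Dusp4 stood at 0.361, 0.473 and 0.459 of Dusp2 in activated BMPR1a/CD4cre, at 0.268, 0.196 and 0.214 in activated WT and at under 0.006 in each naive WT library. The ratio of Dusp4 to Dusp5 was 0.709, 0.849 and 0.838 in activated BMPR1a/CD4cre and 0.482, 0.457 and 0.467 in activated WT libraries. The lowest BMPR1a/CD4cre library was above the highest activated WT library in both ratios. Both carry the Dusp4 level, which did not overlap between the genotypes either, while Dusp2 and Dusp5 were not called. The ratios are therefore no separate evidence of a difference between the genotypes.

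**Figure D5:**
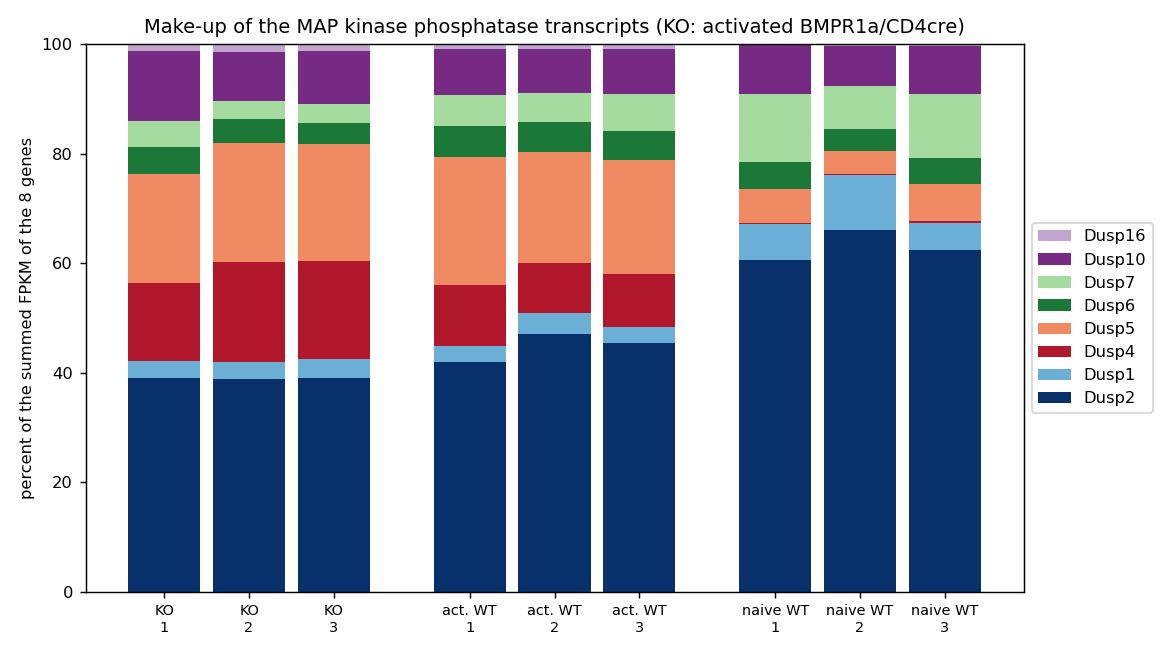
Share of each gene in the summed FPKM of the 8 genes (vertical axis, percent), with a bar for each library. Dusp2 (dark blue) falls short of 50% in every activated library and passes 60% in every naive one, while Dusp4 (red) is visible in activated libraries only, thickest in activated BMPR1a/CD4cre.

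Other members of the phosphatase families were read for context. Dusp8 and Dusp9, the remaining MAP kinase phosphatases listed, had means under the filter of 0.5 FPKM and were not tested: Dusp8 stayed at or under 0.0612 FPKM in each library and Dusp9 reached 0.423 in activated BMPR1a/CD4cre, 0.318 in activated WT and 0.0760 in naive WT. Of 13 atypical dual-specificity phosphatases, 9 were tested. In activated against naive WT cells 3 were higher and 2 lower, beside 26.2% higher and 25.8% lower over all tested genes. They included Dusp22, whose product restrains T cell receptor signalling through Lck (12.5 FPKM in activated and 2.72 in naive WT cells, log2 fold change 1.87, limma adjusted p = 7.72e-05), Dusp14 (0.89, limma adjusted p = 0.00164) and Dusp12 (-1.23, limma adjusted p = 9.74e-05). Between the genotypes, Dusp14, whose product dephosphorylates TAB1, the partner of the kinase TAK1, was the only atypical member called. It was at 2.58, 2.14 and 2.00 FPKM in activated BMPR1a/CD4cre and at 1.38, 0.991 and 0.640 in activated WT libraries (log2 fold change 0.71, SE 0.148, limma adjusted p = 0.0443). Of 6 tested phosphatases of other families that act on MAP kinases, 2 were higher and 1 lower in activated than in naive WT cells, beside the same shares of all tested genes. They were Ptpn5 (1.02), Ptpn7, the haematopoietic tyrosine phosphatase of ERK and p38 (0.40), and Ppm1b (-0.29), at limma adjusted p of at most 0.0195. By limma, 0 of the 6 were called between the genotypes, with 2 at an unadjusted p under 0.05. The share of all tested genes at that unadjusted p was not counted.

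The kinases that these phosphatases act on, and those upstream, were called about as often as genes at large, of which 26.2% were higher and 25.8% lower in activated than in naive WT cells. In that comparison 4 of 11 genes of the ERK arm were higher and 2 lower. Map3k8, an activator of ERK in immune cells, was at 11.7, 10.7 and 10.5 FPKM in activated WT and 1.97, 3.37 and 3.04 in naive WT libraries (log2 fold change 1.68, limma adjusted p = 0.000171), and Mapk3, which encodes an ERK, was higher by 0.48 (limma adjusted p = 0.0125) where Araf was at -0.50 (limma adjusted p = 0.00387). In the JNK and p38 arm, 1 of 16 tested genes was higher, Map3k5 (1.14, limma adjusted p = 9.97e-05), and 7 were lower, with Mapk12 (-0.77, limma adjusted p = 0.00602) and Map3k2 (-0.76, limma adjusted p = 0.000843) ahead. Between the genotypes, 0 of the 11 ERK arm genes were called by limma and 3 had an unadjusted p under 0.05, with Map2k2 at 0.11 (limma adjusted p = 0.55). No share of all tested genes at that unadjusted p was counted to set beside the 3.

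The only gene of the JNK and p38 arm called between the genotypes was Map3k7, which encodes TAK1, a kinase activated downstream of bone morphogenetic protein and TGF-beta receptors. It was at 27.9, 29.3 and 31.8 FPKM in activated BMPR1a/CD4cre and at 21.2, 22.9 and 20.7 in activated WT libraries (0.44 on the log2 scale, SE 0.070, limma adjusted p = 0.0272). Among 10 kinases activated by MAP kinases, 2 were higher and 4 lower in activated than in naive WT cells, beside 26.2% higher and 25.8% lower over all tested genes. Rps6ka2 was at -1.18, Mapkapk2 at 0.75 and Mapkapk5 at -0.61 (limma adjusted p of at most 0.00229). Between the genotypes Mapkapk2, a target of p38, was the only one of the 10 called. It was at 65.5, 80.3 and 70.7 FPKM in activated BMPR1a/CD4cre and at 50.9, 46.5 and 49.4 in activated WT libraries (0.55, SE 0.099, limma adjusted p = 0.0343). In both genes every BMPR1a/CD4cre library lay above every activated WT library. Genes outside the 8 were not followed under the alternatives.

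In activated BMPR1a/CD4cre against naive WT cells, 6 of 11 ERK arm genes were higher and 1 lower, and 5 of 16 JNK and p38 arm genes were higher and 8 lower, beside 31.8% higher and 25.1% lower over all tested genes. The largest differences there were those of Map3k8 (1.94, limma adjusted p = 6.89e-05) and of Mapk8, which encodes a JNK (-1.19, limma adjusted p = 8.87e-05).

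Regulators of RAS, which switches on the ERK arm, were higher in 2 and lower in 8 of 15 cases in activated against naive WT cells, where 26.2% of all tested genes were higher and 25.8% lower. Rasgrp4 was higher (log2 fold change 2.15, limma adjusted p = 0.00114), and the RAS inhibitors Rasal1 (-1.93, limma adjusted p = 8.97e-05) and Rasal3 (-1.03, limma adjusted p = 0.00023) were lower. Other activators of RAS went both ways. Mean levels in activated and naive WT cells were 169 and 336 FPKM for Rasgrp2 and 53.9 and 89.1 for Rasgrp1. They were 3.55 and 7.30 FPKM for Sos1 and 10.1 and 7.12 for Sos2. Of 7 tested feedback genes of ERK signalling outside the Dusp family, 4 were higher and 0 lower in the same comparison, among them Spred3 (2.04), Ier3 (1.504) and Spry1 (0.79), at limma adjusted p of at most 0.0176. Of 16 tested immediate early genes, 2 were higher and 7 lower, with Ier5 (-2.24, limma adjusted p = 7.47e-06), Ppp1r15a (-1.29, limma adjusted p = 0.00655) and Fosl2 (1.48, limma adjusted p = 0.00175) ahead. Between the genotypes limma called 0 genes in each of these 3 lists, with 5 of 15, 2 of 7 and 2 of 16 at an unadjusted p under 0.05. How many of all tested genes had such an unadjusted p was not counted, so these counts do not set the lists apart.

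The genes whose pattern over the 9 libraries was most like that of a member were found by Pearson's r of log2(FPKM + 1). These correlations mainly follow the division between naive and activated libraries and are given as descriptions. For Dusp4 they were Abcb1b, Mdfic and Plscr1 (r = 0.998 each), and for Dusp5 the transcription factor genes Irf4 (0.999) and Tbx21 (0.996) with Klrd1 (0.998). Dusp7 was closest to Smad7, an inhibitor of TGF-beta family signalling (0.993), Uckl1 and Plcb2, and Dusp16 to Rab5if, Eif2b1 and Got1 (0.985 to 0.992). For Dusp1 they were Ppp4r2 (0.990), Lman2l and Ppp4r3a, and for Dusp2 Zfp715, Relt and the neutrophil gene S100a9 (0.978), whose level was also highest in naive replicate 2. Dusp6 (Acp5, Phldb3 and Dennd2d, 0.928 to 0.953) and Dusp10 (Prcc, Chmp7 and Brd7, 0.940 to 0.956) had less close neighbours.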

How the data were processed

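The authors deposited 1 table of FPKM values with a column for each of the 9 libraries. Per the submitters' processing notes, TopHat2, Cufflinks and Cuffdiff were used with genome build GRCm38. For versions, annotation, strand and multiply mapped reads, nothing was found: not given in the sources used here. FPKM estimates carry no read counts, so no counting interval or detection floor was computed. Of 25759 gene identifiers, 24876 matched a symbol. Positions are from GENCODE M21 (GRCm38) and promoters from RefSeq (GRCm38.p6).

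Testing was limited to the 15126 genes, all 8 members among them, whose mean reached 0.5 FPKM. It used limma 3.58.1 (R 4.3.3) on values transformed as log2(FPKM + 1) (group means, all 9 libraries, intensity trend, two-sided, Benjamini-Hochberg over all tested genes, called under 0.05). Values were not rescaled. Median-of-ratios factors were 1.035, 1.017 and 1.035 in activated BMPR1a/CD4cre, 0.971, 0.973 and 0.982 in activated WT and 0.97 to 1.022 in naive WT. The activated groups thus did not overlap in these factors. The test was checked on simulated data. Intervals are 95% from the same fit.

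The members, gene lists and tests were chosen with earlier results of these data known. Besides the 8 members and Bmpr1a, the text names up to 3 called genes per pathway list and comparison with the largest absolute log2 fold change, or up to 2 with the highest mean where none was called, and 3 genes of highest correlation per member with a mean of at least 5 FPKM. A gene that this rule would name is not reported here. Marker genes, the overlapping genes, Fos, Jun and Lyz2, and Rasgrp1, Rasgrp2, Sos1 and Sos2 are named beside the values they touch. Alternatives were another pseudocount, other filters, 2 scalings, fewer libraries, array weights, a replicate block and each library left out.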

Additional observations from a re-analysis of the deposited data

How the results depend on the processing

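Under 17 alternatives, the counts of called genes against naive WT cells stayed between 6702 and 10105 (activated WT) and between 7415 and 10404 (activated BMPR1a/CD4cre), and 6 or 7 of the 8 members were called. At a filter of 2 FPKM, Dusp16 was not tested. Each member called against naive WT cells kept its direction and its call under each alternative that tested it.

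Between the genotypes the count of called genes was 626 as reported. It was 416 with no filter, 306 with median-of-ratios scaling, 324 with quantile normalization, 92 with only the 6 libraries compared, 3851 with array weights and 58 with the replicate block, and 64 to 1037 with 1 library left out. Of the 8 members 2 were called as reported, 1 with the pseudocount of 0.1 and with either scaling, 0 with no filter, with only the 6 libraries compared and with the replicate block, 4 with array weights, and 0 to 2 with 1 library left out.

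Values of 3 members near 0 changed sign without being called. Dusp1 between the genotypes was at -0.048 with median-of-ratios scaling, -0.069 with quantile normalization and -0.081 with array weights, and from -0.049 to 0.148 with 1 library left out. Dusp5 was at -0.069 and -0.084 with these scalings and from -0.046 to 0.087 with 1 library left out. Dusp10 in activated BMPR1a/CD4cre against naive WT cells was at 0.014 with array weights, and from -0.148 to 0.033 with 1 library left out. The cause was not tested.

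Libraries with the same replicate number correlated at 0.003 to 0.054 in their deviations from the group means, and those with different numbers at -0.068 to 0.038. These ranges overlap and do not settle whether the numbers are pairs. The main test took them as unpaired, and the replicate block was among the alternatives. Read depth is unknown, which limits what can be said of Dusp16 and other low genes.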
